A study of Homo sapiens with 12 samples.

Results

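A set of 10 genes of the stress response that follows damage to mitochondria or a shortage of amino acids were examined for open chromatin in MDA-MB-453 cells, with and without doxycycline (Dox): ATF3, ATF4, ATF5, DDIT3, TRIB3, ASNS, CHAC1, SESN2, GDF15 and PSAT1. All 10 were found in the RefSeq table of hg38 genes. A site was a set of overlapping peaks, pooled over the 12 libraries, with a summit inside the gene or within 50 kb of either end. This gave 208 sites of 166523 regions in the series, and each of the 10 genes had at least 1. The question was whether chromatin near these genes differed with Dox whatever the form of the estrogen receptor, since Dox is also the agent that turned the receptor on.

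MDA-MB-453 is a human breast carcinoma line that lacks the estrogen receptor alpha and has the androgen receptor. The study gave it a Dox-inducible receptor in 3 forms: wild type (WT), Y537S, a ligand-binding domain change known for activity without hormone, and K303R, a hinge change. For each form 1 library was made from untreated cells, 1 with 1 nM estradiol (E2), 1 with Dox at 2 ug/mL and 1 with both (Dox plus E2), after 2 days. Every cell, controls included, carried an inducible construct. No library came from cells given Dox without such a construct. An effect of Dox itself and an effect of the induced receptor therefore cannot be told apart in this series. That holds also for sites that differ with Dox in all 3 forms. The labels do not say whether a form was 1 clone or a pool, nor what level the receptor reached.

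The integrated stress response works by slowing most translation when a kinase phosphorylates the initiation factor eIF2 alpha, while translation of the transcription factor ATF4 goes up. ATF4 then raises genes for amino acid synthesis and transport (ASNS, PSAT1), its partners and feedback factors (ATF3, DDIT3, which encodes CHOP, and TRIB3) and secreted or redox factors (GDF15, CHAC1, SESN2). Dox also inhibits the mitochondrial ribosome, and mitochondrial stress is known to feed into this pathway. ATAC-seq reads where transposase can enter DNA. It reports neither RNA levels nor translation, at which ATF4 itself is chiefly controlled.

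ATF4 and CHOP bind together at the C/EBP-ATF element, whose core was searched as TGATGNAA on either strand of the RefSeq promoters (GRCh38.p14, 250 bases before to 50 after each start). It stood in 3 of the 18 promoters listed for the 10 genes and in 3.62% of all 35116 promoters of that length. The cyclic AMP response element TGACGTCA was in 0 of the 18 (1.85% of all), and the full estrogen response element, GGTCA and TGACC with 3 free bases between, in 0 of the 18 (0.057% of all). The promoters with a core are shown with the core in capitals, for comparison with the peaks that follow. In ATF3, at its first start (chr1:212565157-212565456, plus strand), the core lay at -191 to -184 bases from the start. In ASNS (chr7:97872359-97872658, minus strand) it lay at -68 to -61, and in CHAC1 (chr15:40953221-40953520, plus strand) at -209 to -202, as the reverse complement.
ATF3: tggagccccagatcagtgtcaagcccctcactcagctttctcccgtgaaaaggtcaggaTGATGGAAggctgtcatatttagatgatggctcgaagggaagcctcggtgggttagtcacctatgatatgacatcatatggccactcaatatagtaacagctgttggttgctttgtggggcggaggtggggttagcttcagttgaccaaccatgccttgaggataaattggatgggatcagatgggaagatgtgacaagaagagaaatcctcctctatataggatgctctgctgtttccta
ASNS: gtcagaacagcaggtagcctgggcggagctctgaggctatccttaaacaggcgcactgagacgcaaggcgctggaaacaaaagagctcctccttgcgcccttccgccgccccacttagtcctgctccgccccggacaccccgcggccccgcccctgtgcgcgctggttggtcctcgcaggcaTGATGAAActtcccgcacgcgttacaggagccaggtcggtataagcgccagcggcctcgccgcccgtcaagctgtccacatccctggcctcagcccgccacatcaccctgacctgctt
CHAC1: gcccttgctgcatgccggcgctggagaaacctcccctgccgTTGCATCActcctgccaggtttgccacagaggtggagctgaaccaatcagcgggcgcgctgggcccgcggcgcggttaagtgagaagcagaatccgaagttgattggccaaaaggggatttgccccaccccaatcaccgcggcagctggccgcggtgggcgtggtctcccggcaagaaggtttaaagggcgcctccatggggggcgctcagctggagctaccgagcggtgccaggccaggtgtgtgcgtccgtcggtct
The ATF3 stretch overlapped no site, since the nearest ones end before it and begin after it, whereas the ASNS and CHAC1 cores lay inside the start peaks. A match is a description of these letters and was not tested as a binding site.

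Across libraries, the lists held 39522 to 133963 peak summits. The values of column 7, the fold enrichment at the summit over the library's background, cannot be compared directly between libraries. Its median over the 16630 regions open in all 12 libraries (9.99% of regions) ran from 7.88 to 26.2. Read totals were not among the data used here, so depth is unknown. The lowest value listed was 3.31 to 4.16, depending on the library, and a site without a peak is one below that floor, not one shown to be closed. Untreated K303R cells stood apart, with the shortest list and the highest background pileup (0.442, against 0.143 to 0.364 elsewhere). Untreated WT cells had the lowest background pileup (0.143), the lowest median of column 7 (7.88) and the next shortest list (47190 summits). Pileups were worked out from the steps between column 7 values. Tags in the peak names fell into 3 groups, read here as sequencing runs, which the labels do not state: WT with Dox and with Dox plus E2, all Y537S libraries, and the rest. The peak names of the Y537S lists give no receptor form, so that form rests on the labels alone. By that reading Dox and run cannot be told apart in WT, whereas each of Y537S and K303R lay within 1 run. Of 10 luminal breast marker genes, 6 had a peak at the start in all 12 libraries and 0 lacked one in all, and the basal markers KRT5, KRT14 and TP63 had none in any, while the basal marker ACTA2 had one in 9. PTPRC of leukocytes and PECAM1 of endothelium had no peak at the start in any library, CD3E had one in 4 and CDH5 in 2.

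At their starts these genes were mostly open already. Of the 208 sites, 32 had a peak in all 12 libraries and 66 in 1 library only (32% of all regions were open in 1 library). The start of ATF4, DDIT3, TRIB3, ASNS, CHAC1 and SESN2 was open in all 12, that of ATF5 in 11, and that of PSAT1 in 0. Within 1 kb of a listed coding start, whether of these or of neighbouring genes, lay 36 sites, and 3 of them (8.33%) had a peak in both Dox libraries of a form and in neither other. Among all regions that near a start the share was 9.57%.

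ATF4, the central transcription factor of the response, had a start site (chr22:39519073-39521261) open in every library. Its fold enrichment in WT cells was 8.75 untreated, 22.4 with E2, 25.7 with Dox and 28.7 with Dox plus E2. In Y537S cells it was 36, 32.2, 33.1 and 26.4 in the same order. In K303R cells it was 6.94, 12.4, 19 and 21.8. The raw values were thus higher with Dox in WT and K303R and overlapped in Y537S, where the median over the always-open regions was lower with Dox (24.5 and 26.2 without, 18.8 and 18.3 with). To set libraries whose values differ in scale side by side, each value was ranked among the always-open regions of its own library. The rank of the ATF4 start was then at percentile 59, 79.8, 90 and 95 in WT cells, 79, 65.5, 82.8 and 72.1 in Y537S cells and 29.6, 46.2, 72.5 and 77.9 in K303R cells. It was higher with Dox in 6 of 6 pairs matched on form and E2 (mean 81.7 against 59.8, a difference of 21.9). An exact two-sided permutation of the Dox labels within the forms gave p = 0.0185, and p = 0.136 after Benjamini-Hochberg adjustment over all 16630 regions, so the difference did not pass. In Y537S and K303R, each with 1 tag in its peak names, the rank was higher with Dox in 4 of 4 pairs.

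SESN2 encodes sestrin 2, a leucine sensor that restrains mTORC1. Its start site (chr1:28259060-28260466) had a fold enrichment of 7, 15.4, 18.4 and 13.6 in WT (untreated, E2, Dox, Dox plus E2). The values were 25.3, 24, 24.1 and 25.7 in Y537S and 4.16, 12.4, 16.5 and 15.1 in K303R. Its percentile was higher with Dox in 6 of 6 pairs, at 64 against 38.7, a difference of 25.3 (exact permutation p = 0.00926, adjusted p = 0.109). The smallest p this design allows is 0.00926, and 0 of the 16630 always-open regions passed after adjustment. The untreated K303R value ranked at percentile 0.929, and it belongs to the library that stood apart. Without the K303R form the smallest p possible is 0.0556, which cannot pass.

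The other starts differed less. DDIT3 encodes CHOP, and its start (chr12:57519121-57521152) gave 6.13, 15.4, 12.5 and 12.8 in WT. It gave 21.5, 15.7, 22.6 and 15.4 in Y537S and 7.63, 10.7, 10.7 and 15.9 in K303R. Values with and without Dox overlapped or touched in each form, and the percentile difference was 13 (exact permutation p = 0.157, adjusted p = 0.387, higher in 5 of 6 pairs). TRIB3 encodes a pseudokinase that feeds back on ATF4 and CHOP. At its start (chr20:380489-382710) the values were 4.38, 7.72, 10.3 and 10.4 in WT cells, 15.3, 21.7, 13.5 and 10.3 in Y537S cells and 5.55, 7.43, 7.44 and 5.87 in K303R cells. The raw values were higher with Dox in WT and lower in Y537S, where the percentiles overlapped (17.3 and 34 without Dox, 29.1 and 17.2 with). The percentile difference of 7.93 over all forms did not pass (exact permutation p = 0.296, adjusted p = 0.548).

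For ASNS, asparagine synthetase, the start site (chr7:97871733-97872718), which holds the C/EBP-ATF core printed above, gave 10.5, 10.8, 15.4 and 12 in WT. It gave 22.2, 26.2, 27.8 and 24.2 in Y537S and 6.24, 14.9, 8.27 and 15.9 in K303R. With and without Dox the values overlapped in Y537S and K303R (percentile difference 9, exact permutation p = 0.481, adjusted p = 0.707). CHAC1 encodes an enzyme that degrades glutathione, and its start (chr15:40952589-40954089) also holds the core. Among the listed starts of the 10 genes it was the most enriched in 11 of 12 libraries. The exception was WT with Dox, where ATF4 was higher. Values at the CHAC1 start were 21, 34.7, 23.5 and 34.3 in WT cells. They were 56, 50.2, 41.4 and 41.8 in Y537S cells and 16.6, 19.8, 23.1 and 28.5 in K303R cells. The percentile difference was -1.73 (exact permutation p = 0.546, adjusted p = 0.754).

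ATF5, the factor of the mitochondrial unfolded protein response, had a start site (chr19:49928387-49930239) with 4.38, 8.49, 8.08 and 4.79 in WT and 8.43, 11.2, 13.5 and 13.2 in Y537S. In K303R it had no peak untreated and then 6.6 with E2, 9.09 with Dox and 11.7 with Dox plus E2. A missing value in untreated K303R kept it out of the rank test. GDF15, a secreted factor of stressed mitochondria, had a weak start site (chr19:18385947-18386304) in 5 libraries. It was listed at 5.14 in WT with Dox, at 4.49 and 6.77 in Y537S with E2 and with Dox, and at 5.79 and 6.71 in K303R with Dox and with Dox plus E2. It met the definition of gained in K303R but in neither other form.

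ATF3, a repressor and activator induced by many stresses, has 2 starts in the table. The site within 1 kb of a start that was open in the most libraries (chr1:212566009-212566221) was listed at 5.88 in WT with Dox and at 4.13 and 3.36 in K303R with Dox and with Dox plus E2, and in no Y537S library. The K303R values are near the lowest that those lists hold (3.31 and 3.36). Between the 2 listed starts, however, the ATF3 site at chr1:212608112-212610132, 6.27 kb before the second, was open in all 12 libraries. Its values ran from 14.6 to 60.6, and its percentile difference was -1.3 (exact permutation p = 0.62, adjusted p = 0.801). Whether a start missing from the table lies there was not examined. PSAT1, a serine synthesis enzyme, had no peak within 1 kb of its start. Its 2 sites were each open in 1 Y537S library, at chr9:78320970-78321304 with Dox plus E2 (5.87) and at chr9:78369772-78369935 with Dox (6.77).

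**Figure D1:**
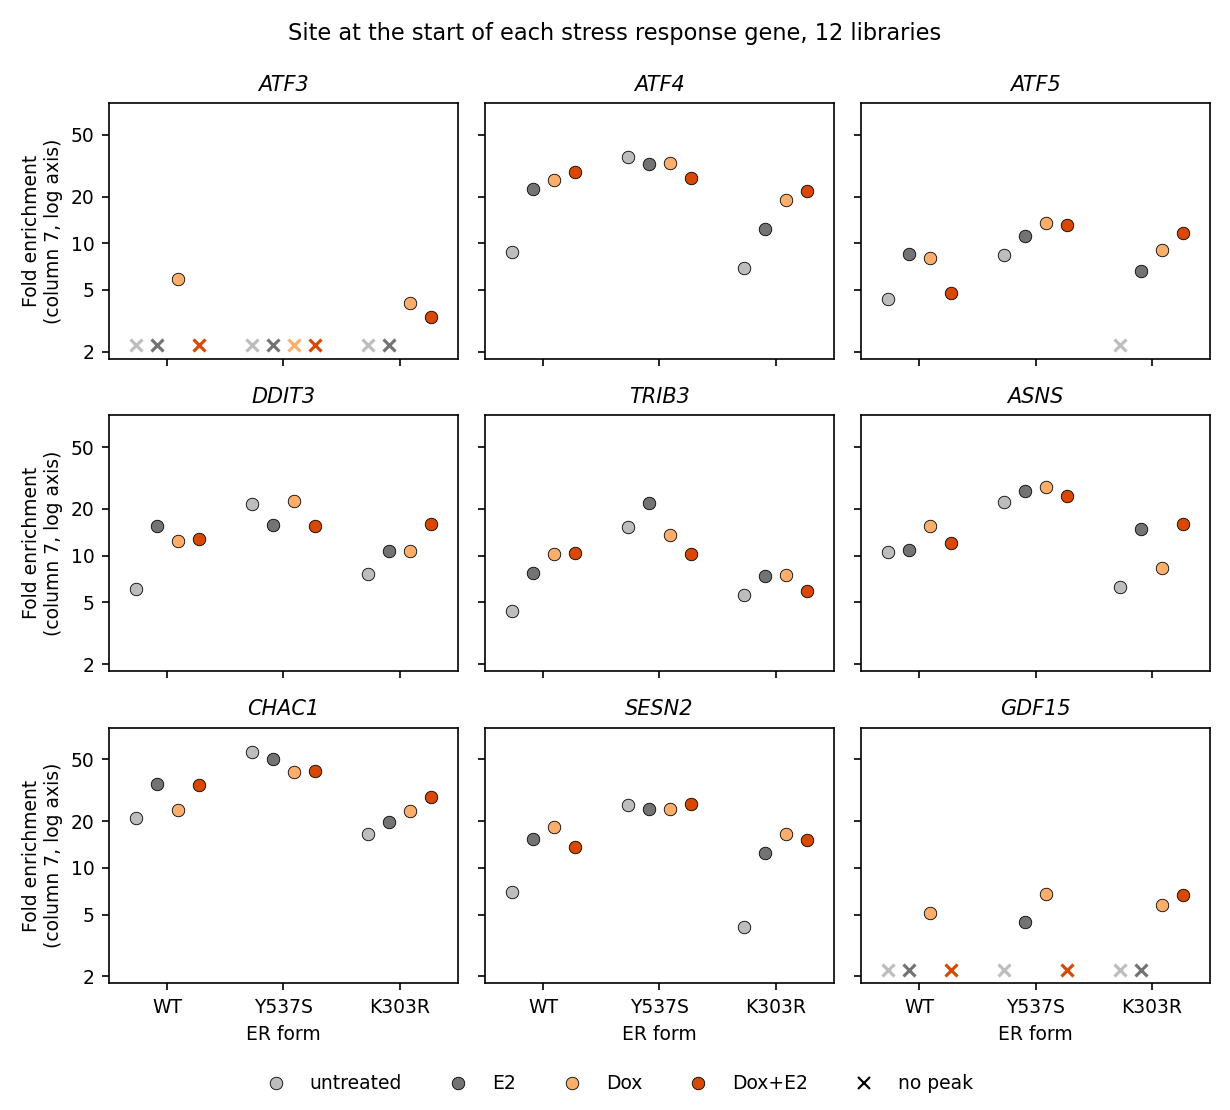
Fold enrichment (column 7, log axis) of the site at the start of each gene in 12 libraries, by estrogen receptor (ER) form; crosses are libraries with no peak, and each point is 1 library without replicate. PSAT1 is not drawn because it had no such site, and the ATF4 start reaches 28.7 in WT with Dox plus E2 but is highest, at 36, in untreated Y537S. For ATF3 the site drawn is at a listed start, and the always-open ATF3 site between the listed starts is not drawn.

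Change with Dox was therefore sought in presence as well as in height. A site was called gained in a form when both libraries with Dox had a peak and both without had none, and lost in the reverse case. With 1 library per condition, no test was made within a single form. Of the 208 sites, 18 were gained in WT (8.65%), where 4.14% of all regions were. In Y537S 26 were gained (12.5%), where 18.2% of all regions were, and in K303R 20 (9.62%), where 8.54% were. The share at these genes was thus above the background in WT, below it in Y537S and near it in K303R. The order in Y537S turned with the length of the lists: cut to equal length, the shares gained at these genes were 9.3% in WT, 19.8% in Y537S and 4.65% in K303R, against 4.28%, 13.2% and 2.55% of all regions. At a -log10 q of at least 10 the K303R share was no longer near the background, at 11.7% of 103 sites against 4.67%. The WT gains lay near 5 genes, with 6 at ATF3, 6 at ATF4 and 2 each at TRIB3, CHAC1 and GDF15. Of all genes in the table, 34% had a site gained in WT, 68.4% in Y537S and 58.2% in K303R, against 5, 7 and 6 of these 10. The units differ, since these 10 had a median of 19 sites per gene and all genes 13. A gene with more sites has more places for a gain. Losses were few: 3 in WT (1.44%, background 2.08%), 4 in Y537S (1.92%, background 6.71%) and 0 in K303R (background 0.0799%). By definition a loss needs a peak in the untreated library, whose list was the shortest of each form. With that library left out, 16 sites were lost in WT (7.69%, background 8.83%) and 18 gained (8.65%, background 4.43%). In the same way 13 were lost in Y537S (6.25%, background 13.4%) and 2 in K303R (0.962%, background 1.44%).

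In all, 45 sites (21.6%) were gained in at least 1 form, where 25.5% of all regions were, and they lay at 8 of the 10 genes, where 83.6% of all genes had such a site. In at least 2 forms 13 sites were gained (6.25%, background 4.08%), and in all 3 forms 6 (2.88%, background 1.3%). Only 1 site was lost in 2 forms and 0 in all 3 (background 0.0024%). The 6 sites gained in every form lay at ATF4 (4), TRIB3 (1) and CHAC1 (1).

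Near ATF4 the 4 sites sat together upstream, with summits from -49.4 to -37.7 kb of its start. All 4 lie inside the span of MGAT3, a glycosyltransferase gene, and nearer to the start of MIEF1, a mitochondrial fission factor gene, than to that of ATF4. The site at chr22:39471432-39473040 had, with Dox and then Dox plus E2, values of 19.8 and 15.2 (WT), 21.8 and 24.9 (Y537S), and 6.61 and 11.7 (K303R). At chr22:39482677-39483411 the values were 14.7 and 15.2, 23.3 and 22.7, and 8.27 and 16.8. At chr22:39480032-39481348 they were 12.5 and 15.2, 34.6 and 25.7, and 7.44 and 3.36. The 6 libraries without Dox had no peak at any of these. The fourth site, chr22:39470443-39471365, was weaker, at 9.55 and 11.2, 11.3 and 12.5, and 4.96 and 5.87. In the same cluster chr22:39478485-39478924 was gained in WT (11 and 13.6) and K303R (6.61 and 6.71) but open throughout in Y537S (6.13 and 6.74 without Dox, 9.78 and 8.8 with). Judged by the weaker of the 2 libraries with Dox, chr22:39471432-39473040 was the strongest gain of the 10 genes in WT (-log10 q 25.1). It was followed by chr22:39482677-39483411 (24.1), which was also the strongest in K303R (10.7). Only the site at chr22:39482677-39483411 was gained in all 3 forms when each list was cut to its top 39522 summits, the length of the shortest list. It also met that definition at a -log10 q of at least 10.

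The always-open site at -30.2 kb from the ATF4 start (chr22:39489999-39490686), beside that cluster, went from 8.75 and 11.6 without Dox to 16.9 and 16.8 with it in WT. It went from 20.7 and 27.7 to 39.1 and 30.8 in Y537S and from 9.02 and 9.91 to 17.4 and 14.3 in K303R. In each form both values with Dox were above both without. Its percentile was 27.1 higher with Dox, in 6 of 6 pairs (exact permutation p = 0.0278, adjusted p = 0.163).

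Around CHAC1 the site 12.8 kb downstream of the start (chr15:40965632-40966644) was gained in every form. With Dox and then Dox plus E2 it had 7.35 and 10.4 (WT), 32.4 and 35.2 (Y537S), and 4.96 and 6.71 (K303R). In Y537S it was the strongest gained site of the 10 genes (-log10 q of at least 70 in both libraries). The neighbour at chr15:40960586-40961466 was gained in WT (5.14 and 13.6) and Y537S (21.1 and 24.2), and in K303R had a peak only with Dox plus E2 (5.03). The neighbour at chr15:40968601-40969258 was gained in Y537S (21.1 and 19.8) and K303R (5.79 and 4.19), and in WT had a peak only with Dox plus E2 (5.59). At each of these 3 sites both Y537S values with Dox were above every value of the other forms, in libraries whose values also differed in scale. Upstream, chr15:40931218-40932112, inside DLL4, was gained in Y537S (21.1 and 21.3) and listed in K303R with Dox plus E2 at 4.19. The always-open site at -11.8 kb (chr15:40941108-40942734) had 7.88, 16.2, 16.2 and 13.6 in WT cells, 25.3, 26.2, 28.6 and 24.2 in Y537S cells and 4.16, 10.7, 14.9 and 15.1 in K303R cells. Its percentile was 21.7 higher with Dox, in 6 of 6 pairs (exact permutation p = 0.00926, adjusted p = 0.109), while the raw values overlapped between the groups in WT and Y537S. The untreated K303R value, 4.16, is the lowest of its list. It ranked at percentile 0.929, in the library that stood apart.

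**Figure D2:**
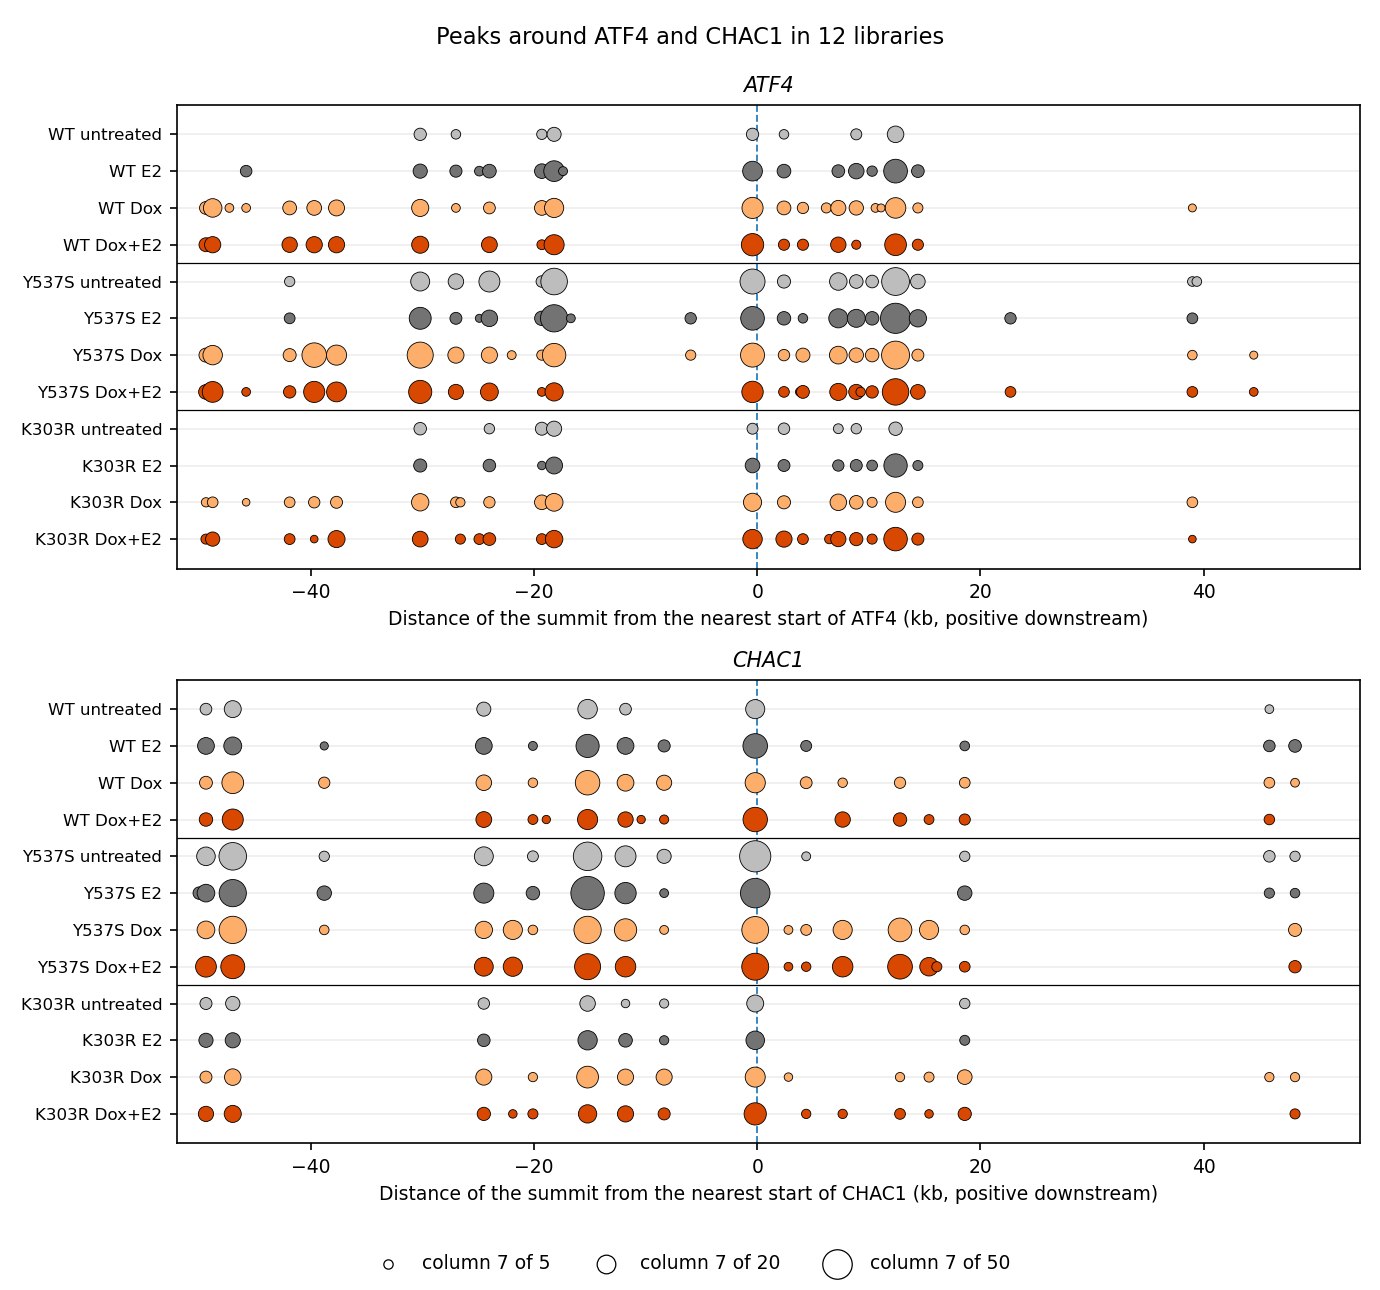
Peaks around ATF4 and CHAC1, placed by the distance of the summit from the start (kb, dashed line), with 1 row per library and the circle area in proportion to fold enrichment (column 7); E2 is estradiol. Left of ATF4, from -49.4 to -37.7 kb, the circles of 4 sites appear in the 6 libraries with Dox only, and right of CHAC1 the site at 12.8 kb does the same.

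TRIB3 had 10 sites gained in Y537S, 2 in WT and 4 in K303R, the most Y537S gains of the 10 genes. Its site gained in every form (chr20:433695-434022, 52.5 kb downstream of the start) was weak, with 5.88 and 5.59 (WT), 5.27 and 13.2 (Y537S), and 5.79 and 4.19 (K303R). Next to it chr20:434399-435109 was gained in WT (5.14 and 9.58) and Y537S (15 and 15.4). Further on, chr20:444820-445474, inside TBC1D20, was gained in Y537S (6.77 and 7.33) and K303R (4.13 and 6.71). Both K303R libraries with Dox list peaks from a summit pileup of 3, where untreated K303R starts at 5. With a pileup of at least 5 asked of every library, a limit chosen after seeing the data, 4 of the 6 sites remained gained in every form, and the TRIB3 site and the ATF4 site at chr22:39480032-39481348 did not. GDF15 had 2 sites gained in WT and K303R and open in all 4 Y537S libraries. At chr19:18340269-18341550, inside PGPEP1, the gained values were 5.14 and 6.39 in WT and 3.31 and 4.19 in K303R, against 6.6 to 9.2 in Y537S. At chr19:18419975-18420633, inside SSBP4, they were 5.88 and 6.39 in WT and 5.79 and 6.71 in K303R, against 5.24 to 8.07 in Y537S.

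ATF3 had 45 sites, the most of the 10 genes, and 20 of them were open in 1 library only, 11 of these in WT with Dox. Open sites near ATF3 numbered 7 untreated, 15 with E2, 29 with Dox and 17 with Dox plus E2 in WT. They numbered 9, 12, 9 and 14 in Y537S cells, and 8, 12, 17 and 16 in K303R cells. The highest count was thus in WT with Dox, a library whose tag differs from that of the WT libraries without Dox. The 6 sites gained in WT all lay between chr1 212610344 and 212622249, around the second start, with values of 3.99 to 7.35. No Y537S library had a peak at any of them, and K303R had 1 at 2 of them, with Dox plus E2 (4.19 each). Near the first start, by contrast, the site at chr1:212567112-212567475 was open in 11 libraries and had 7.67 and 6.74 in Y537S without Dox and 26.3 and 24.9 with it. In WT it had no peak untreated, 6.17 with E2, 11 with Dox and 14.4 with Dox plus E2, and in K303R 6.24, 5.78, 11.6 and 11.7. In each form both values with Dox were above both without.

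**Figure D3:**
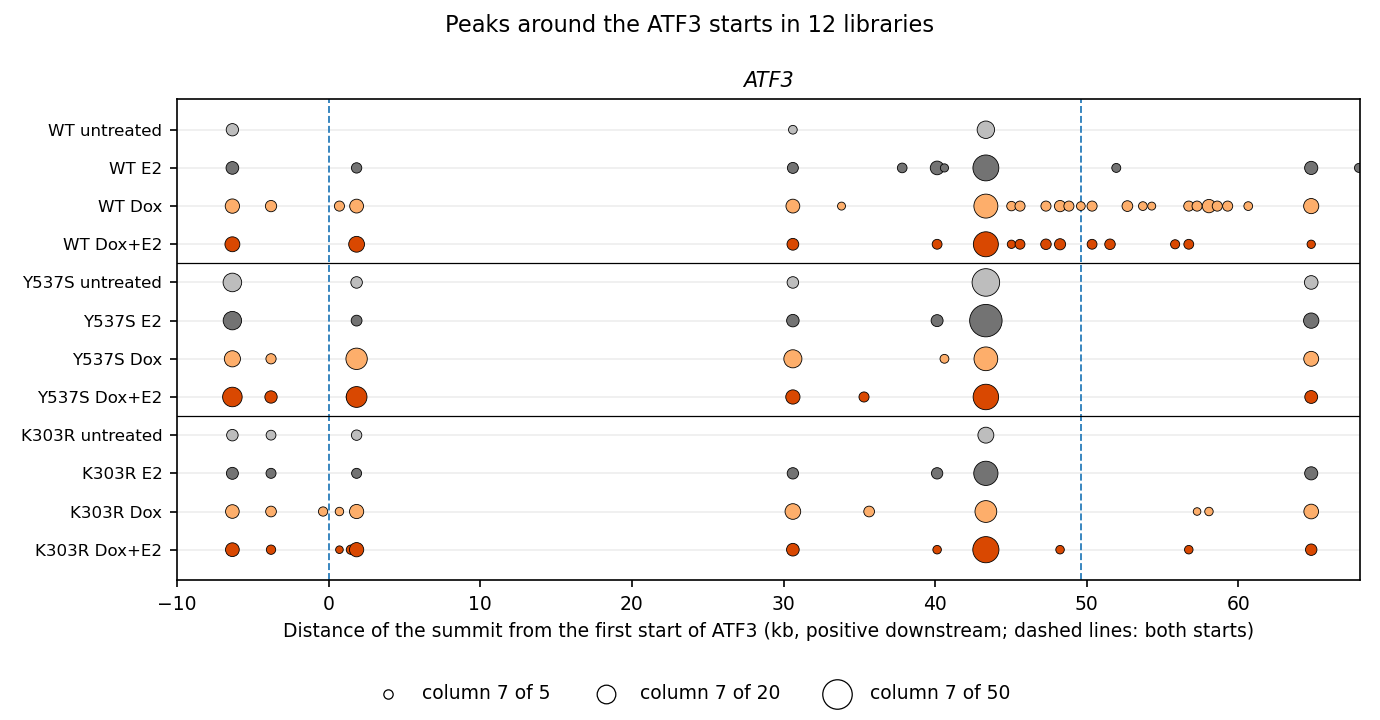
Peaks around ATF3, placed by the distance of the summit from the first start (kb); dashed lines mark both starts, circle area is in proportion to fold enrichment (column 7) and E2 is estradiol. Circles crowd around the second start in the WT libraries with Dox (29 open sites with Dox and 17 with Dox plus E2 over the whole window), and the site 1.85 kb past the first start is larger with Dox in Y537S.

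Sites open in all 4 libraries of a form were compared by column 7 divided by the library's median over the always-open regions, a comparison chosen after seeing the data and carrying no test. In Y537S 5 of 65 such sites were at least 2 times higher with Dox, counting the nearest values, and 1 was at least 2 times lower (background 3.97% and 2.86%). In WT 0 of 43 passed in either direction (background 0.425% higher, 0.826% lower), and in K303R 0 of 46 (0.0515% and 0.408%). Beside the ATF3 site, whose nearest scaled values differed 4.34 times, the largest was near SESN2 at chr1:28313730-28314750, with 7.67 and 8.24 without Dox and 29.3 and 30.8 with it (4.95 times). At chr20:341644-342133, upstream of TRIB3, the values were 4.6 and 3.74 without and 14.3 and 14.7 with (4.05 times). Next to the DDIT3 start, chr12:57521876-57523346, which is nearer the start of MBD6, had 10.7 and 12 without and 21.1 and 21.3 with (2.45 times). GDF15 had chr19:18380048-18380722, at -5.68 kb, with 9.2 and 8.24 without and 21.1 and 16.1 with (2.34 times). The lower site was at -2.68 kb from the TRIB3 start (chr20:378263-379296), at 16.9 and 18.7 without Dox and 4.51 and 5.13 with it (2.46 times). In WT the SESN2 site was also higher with Dox, at 3.5 and 10.8 without and 15.4 and 16 with. In K303R it had no peak untreated, 4.95 with E2, 18.2 with Dox and 15.1 with Dox plus E2.

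Losses were found at 6 sites. SESN2 had the site lost in 2 forms, chr1:28296754-28297164, 37.4 kb past its start, listed without Dox at 4.38 and 6.17 in WT and at 7.67 and 12.7 in Y537S. In K303R that site was open in all 4 libraries (6.24, 5.78, 9.09 and 7.55). A second SESN2 site, chr1:28322132-28322647, was lost in WT (5.25 and 7.72). The ATF3 site at chr1:212520122-212520644 was lost in WT (4.38 and 6.17). Single sites were lost in Y537S near TRIB3 (chr20:400238-400733, 6.9 and 12), ASNS (chr7:97971512-97972121, 7.67 and 6.74) and CHAC1 (chr15:40999198-40999537, inside INO80, 7.67 and 5.99). All lost sites were weak, with values between 4.38 and 12.7. Presence in both E2 libraries of a form and in neither other was seen at 2 sites in WT (0.962%, background 0.636%), 2 in Y537S (0.962%, background 0.851%) and 3 in K303R (1.44%, background 1.21%).

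Because the length of the lists differed with Dox, each gene's open sites were also counted per 10000 open regions of the library. The 10 genes together held 14.4, 16.1, 20.6 and 19.4 per 10000 in WT (untreated, E2, Dox, Dox plus E2). In Y537S they held 12.9, 12.3, 12.4 and 13.2, and in K303R 16.6, 16.8, 15 and 14.3. Both WT libraries with Dox were above both without, both K303R libraries with Dox were below both without, and Y537S overlapped. By gene, 0 of the 10 had a changed share after adjustment over 19405 genes, as did 0% of all genes (exact permutation, two-sided). With a smallest possible p of 0.00926, a pass would have needed a large part of all genes at that p. SESN2 alone had an unadjusted p under 0.05, and its share was lower with Dox, at 1.36 against 1.83 per 10000, in 6 of 6 pairs (exact permutation p = 0.00926, adjusted p = 0.0873). At a -log10 q of at least 5 or with lists of equal length SESN2 no longer had an unadjusted p under 0.05. Of all genes, 8.82% were higher and 16.3% lower at an unadjusted p under 0.05. ATF4 held 3.13 per 10000 with Dox against 2.62 without and was higher in 5 of 6 pairs (exact permutation p = 0.111, adjusted p = 0.29). TRIB3 held 2.62 against 2.29, also higher in 5 of 6 pairs (exact permutation p = 0.139, adjusted p = 0.331). For ATF3 the share was 2.75 against 2.25, but higher in only 2 of 6 pairs, those of WT (exact permutation p = 0.389, adjusted p = 0.606). Of the 32 always-open sites, 5 had a higher and 1 a lower percentile with Dox at an unadjusted p under 0.05 (10.8% and 11.7% of all always-open regions), and 0 passed adjustment (background 0%). The 5 comprise the ATF4 start and its site at -30.2 kb, the SESN2 start, the CHAC1 site at -11.8 kb and a SESN2 site at -12.3 kb (difference 19.5). The lower was at -46.4 kb from the first ATF3 start (difference -25.7, exact permutation p = 0.0278, adjusted p = 0.163).

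**Figure D4:**
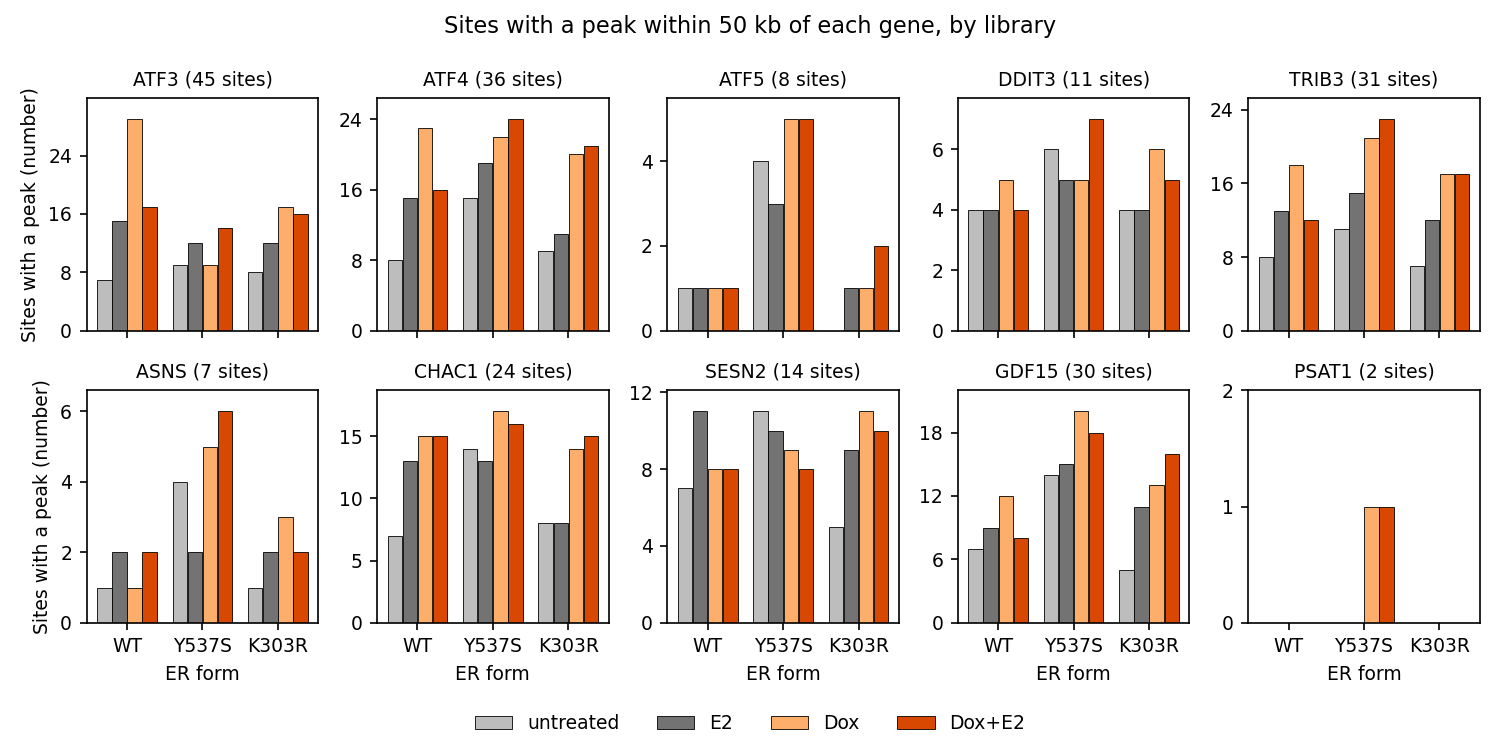
Number of sites with a peak near each of the 10 genes, with 1 bar per library, grouped by estrogen receptor (ER) form; E2 is estradiol and the axes start at 0 and differ between genes. ATF3 reaches 29 open sites in WT with Dox, and SESN2 goes (untreated, E2, Dox, Dox plus E2) 7, 11, 8 and 8 in WT, 11, 10, 9 and 8 in Y537S, then 5, 9, 11 and 10 in K303R.

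Other genes of the same pathways were counted in the same way, from lists made from general knowledge with earlier results of these data known. Of 23 further ATF4 and CHOP targets, 4.35% of sites were gained in WT, 17.1% in Y537S and 8.94% in K303R, each close to the share of all regions given above. At an unadjusted p under 0.05, 2 of these 23 genes had a higher and 4 a lower share of open sites. For 9 genes that control eIF2 alpha phosphorylation (its kinases, eIF2 alpha itself, phosphatase subunits, and OMA1 and DELE1, which relay the mitochondrial signal) the shares gained were 3.57%, 7.14% and 10.7%, with 0 genes higher and 2 lower. For 9 mitochondrial chaperones and proteases they were 1.79%, 10.7% and 4.46% (0 higher, 3 lower), for 10 genes of endoplasmic reticulum stress 2.55%, 10.7% and 6.63% (0 higher, 4 lower), and for 12 aminoacyl-tRNA synthetases 1.67%, 17.2% and 3.89% (1 higher, 4 lower). After adjustment 0 genes passed in any of these lists. HSPD1 and HSPE1, both among the lower mitochondrial genes, lie side by side with the same values (10 sites each, difference -0.435 per 10000). Sites in both windows were counted for each gene, so the 2 are not separate loci. The 10 comparison genes known as estrogen receptor targets had larger shares gained, 12.5% in WT, 32.5% in Y537S and 14.6% in K303R, and 9 of the 10 were higher and 0 lower at an unadjusted p under 0.05. Their median difference in share with Dox was 0.595 per 10000, against 0.0364 for the 10 stress response genes and -0.0468 for all genes. The median number of sites per gene also differed, at 22, 19 and 13 in the same order. The list differences carry no test. The receptor target list, too, was made with earlier results of these data known, so its larger shares are not an independent contrast. Of the receptor target sites gained, CA12 and RET held 7 and 6 of 30 in WT and 17 and 19 of 78 in Y537S. In K303R they held 6 and 7 of 35.

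The genes with the most sites gained in at least 2 forms, up to 3 per list, were looked at singly. Being picked for such sites, they do not stand for their lists. Of all regions, 1.3% were gained in all 3 forms and 4.08% in at least 2. The glycine transporter gene SLC6A9 (38 sites) and the ATF family member JDP2 (32 sites) each had 2 sites gained in all 3 forms. PHGDH, the first enzyme of serine synthesis (25 sites), had 0. ERN1, which encodes the endoplasmic reticulum sensor IRE1, also had 2 (of 54 sites). DELE1 (13 sites), the kinase gene EIF2AK2 (9 sites) and the mitochondrial chaperone gene DNAJA3 (22 sites) had 1 each. The kinase gene EIF2AK4, the tRNA synthetase genes CARS1, EPRS1 and SARS1, and CALR and SDF2L1 of the endoplasmic reticulum had 0, each with 1 site gained in 2 forms. The mitochondrial protease genes AFG3L2 and CLPP had 0 gained in more than 1 form. PYCR1 tied with PHGDH, and PPP1R15A with EIF2AK4, and both had 0 gained in all forms as well. The receptor targets CA12 (47 sites) and RET (50 sites) had 3 each. CA12 had 7 sites gained in WT, 17 in Y537S and 6 in K303R, where RET had 6, 19 and 7. SIAH2, another receptor target, had 1 (of 23 sites).

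**Figure D5:**
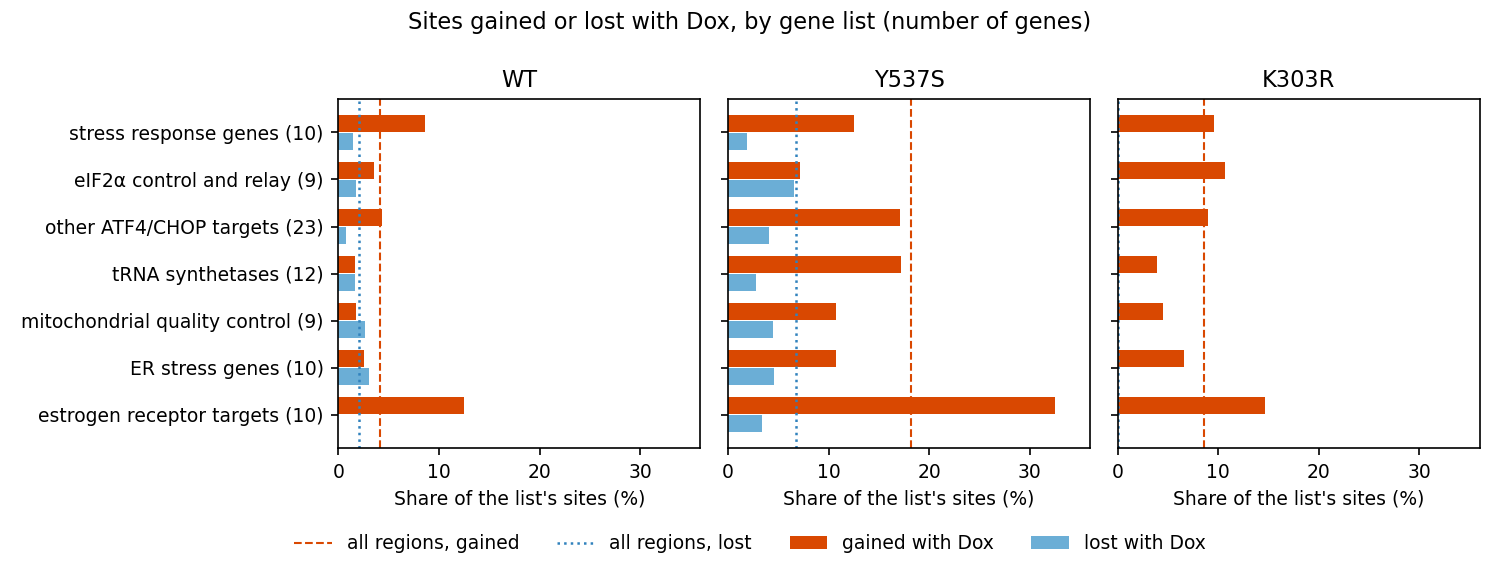
Share of each list's sites (%) gained (upper bar) or lost (lower bar) with Dox in each estrogen receptor (ER) form, with lines at the share of all regions. The 10 stress response genes lie above the line of gained regions in WT (8.65% against 4.14%) and below it in Y537S (12.5% against 18.2%), and the 10 receptor targets lie above it in all 3 forms. All lists were made with earlier results of these data known, so the receptor targets are not an independent contrast.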

How the data were processed

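The data were 12 ATAC-seq peak lists, 1 per library, from 75 bp paired-end reads. The submitters' processing notes name MACS2, Bowtie2, Picard, SAMtools and FastQC and the build hg38. Versions, settings and any shift of reads for the transposase were not given in the sources used here. In the files the authors deposited, column 7 is a fold enrichment at the summit (a ratio to the library's own background), columns 8 and 9 are -log10 p and -log10 q, column 5 is a score equal to 10 times column 9 with decimals dropped, and column 10 is another value, the distance of the summit from the peak's start. Scores were not analysed. Column 7 is not scaled between libraries, and peaks were called per library without pooling. The labels give the Dox unit as ug/mi, read here as ug/mL.

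Peaks sharing at least 1 bp were merged, near each gene and over the genome, and each gene's window was its RefSeq span plus 50 kb on each side. Dox labels were permuted exactly within the 3 forms (216 arrangements, two-sided) over all genes and all always-open regions, with Benjamini-Hochberg adjustment at 0.05. With no replicate libraries, these p-values treat the 12 libraries as exchangeable within forms. On simulated data the script was tested for the recovery of known changes. Python 3.11.15, numpy 2.4.6, pandas 2.3.3, scipy 1.17.1 and matplotlib 3.10.9 were used. Alternatives were -log10 q of at least 5 or 10, lists of equal length, windows of 20 and 100 kb, each library or form left out, -log10 p in place of column 7 and, chosen after seeing the data, a summit pileup of at least 5 and Dox labels swapped only within the 6 pairs of 1 form and 1 E2 level (64 arrangements).

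The 10 genes and the lists were chosen with earlier results of these data known. All 10 genes are described, with the site at each start, every site gained or lost in at least 2 forms, and in each form the 5 strongest gained and 5 strongest lost sites. Sites compared by scaled height were chosen after their values were seen. Sequence came only from the RefSeq promoter table. Exons, introns and sequences at peaks away from it are not analysed here. Coordinates are 1-based.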

Additional observations from a re-analysis of the deposited data

How the results depend on the processing

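Adjusted calls were 0 of 10 genes with windows of 20 and 100 kb, at a -log10 q of at least 5 and with paired swaps, and 0 of 9 with lists of equal length. They were 0 of 32 always-open sites with -log10 p or paired swaps and 0 of 21 with lists of equal length. In these settings no p can fall below 0.00926, or below 0.0312 with paired swaps. Adjustment then passes a feature only if a large part of all features share so small a p. These zeros therefore say little of stability. Leaving out a form cannot give a p below 0.0556, so it says nothing of stability. Swapping Dox within pairs of 1 form and 1 E2 level, added after seeing the data, allows no p below 0.0312. SESN2 (share lower) and the 5 always-open sites named as higher all had that p (adjusted p = 0.199 and 0.215 by exact permutation), and the lower ATF3 site had p = 0.0625. The labels carry no replicate numbers, so no replicate block was fitted. At an unadjusted p under 0.05, lists of equal length gave higher shares for ATF4, CHAC1 and DDIT3 (with the full lists the DDIT3 difference was -0.186 per 10000, and SESN2 alone had such a p). A -log10 q of at least 5 gave higher shares for ATF4 and TRIB3, and 100 kb a higher share for ATF4 and lower ones for ATF5 and SESN2. Counts of sites moved with the lists, and the cause was not tested. At a -log10 q of at least 5 (159 sites), 8 sites were gained in K303R (5.03%, background 4.53%). At that limit 8 were lost in Y537S (5.03%, background 8.85%) and 2 were gained in all forms (1.26%, background 0.69%). At a -log10 q of at least 10 (103 sites), 7 were gained in WT (6.8%, background 2.53%) and 12 in K303R (11.7%, background 4.67%). Of these 103 sites, 1 was lost in WT (0.971%, background 0.998%) and 7 in Y537S (6.8%, background 10.6%). In all forms 2 were gained (1.94%, background 0.421%). With lists of equal length (86 sites), 8 were gained in WT, 17 in Y537S and 4 in K303R, with the shares given above. Of these 86 sites, 3 were lost in K303R (3.49%, background 2.6%) and 1 was gained in all forms (1.16%, background 0.507%). Within 20 kb (124 sites), 9 were gained in WT, 11 in Y537S and 7 in K303R, 1 was lost in WT and 2 in Y537S, and 1 was gained in all forms. Within 100 kb (353 sites), 62 were gained in Y537S and 6 lost in WT. The shares of all regions do not depend on the window, at 4.14%, 18.2% and 8.54% gained in WT, Y537S and K303R. Of all regions 2.08% were lost in WT and 6.71% in Y537S, and 1.3% were gained in all forms. With a pileup of at least 5 (192 sites), chosen after seeing the data, 13 were gained in K303R (6.77%, background 5.48%). In WT 1 was lost at that limit (0.521%, background 1.34%). Leaving out 1 library loosens the definition. The sites gained then ranged from 18 to 47 in WT (8.65% to 22.6%, background 4.43% and 10.9% in the same settings). They ranged from 28 to 47 in Y537S (13.5% to 22.6%, background 19.9% and 25.5%). In K303R they ranged from 20 to 38 (9.62% to 18.3%, background 9.29% and 15.7%). Those lost ranged from 3 to 16 in WT (1.44% to 7.69%, background 2.49% and 8.83%). In Y537S they ranged from 7 to 13 (3.37% to 6.25%, background 9.1% and 13.4%). In K303R they ranged from 0 to 2 (at most 0.962%, background 1.44% in that setting). The highest WT count of gains came without the Dox plus E2 library. In each form the highest count of losses came without the untreated library. Without untreated K303R the K303R gains numbered 20, as with it. Read depth is unknown, and a site without a peak may lie just below its list's floor.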
